A study of Homo sapiens with 4 samples.

Results

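The Toll-like receptors (TLR1 to TLR10) were followed in MOLM-14 cells treated with DZNep. The 10 human genes were taken by symbol from the probe annotation, keeping probe sets with exactly 1 gene symbol. Of these 10, 8 had such a probe set, 1 each, among 18377 genes measured. TLR5 and TLR10 were not analysed here. MOLM-14 is an established human acute myeloid leukemia line. The 2 DZNep samples received DZNep at 2 µM and the 2 DMSO samples its solvent, and all 4 were profiled after 24 h on 1 whole-transcript array each. All 4 samples are of 1 line grown in the same serum-containing medium, and no untreated sample is among them. DZNep, 3-deazaneplanocin A, inhibits S-adenosylhomocysteine hydrolase and so hampers many methyltransferases, EZH2 among them.

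Toll-like receptors are innate sensors with a leucine-rich repeat domain that binds microbial molecules and a cytoplasmic TIR domain that recruits adaptor proteins. One class sits at the cell surface and senses lipids and proteins of microbes (TLR1, TLR2, TLR4, TLR5, TLR6 and, as usually grouped, TLR10). The other sits in endosomes and senses nucleic acids (TLR3, TLR7, TLR8 and TLR9). Monocytes use mainly the surface receptors and TLR8, and signalling through the adaptor MyD88 ends in NF-κB activation and cytokine production.

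All 4 surface receptors measured were higher with DZNep, led by TLR1 (2.20-fold) and TLR2 (1.91-fold), and of the 4 endosomal receptors TLR8 was higher (1.78-fold) while TLR3, TLR7 and TLR9 did not pass the test. Values are log2 of the deposited intensity, and a receptor was called at a limma adjusted p under 0.05 over all genes. Over all genes this rule called 10.3%, with 3.62% higher and 6.68% lower in DZNep samples. No dim gene was filtered out, so all 8 receptors entered the test. The labels call the samples biological replicates without saying whether they were separate cultures. A p-value here reflects the spread among these 4 arrays alone, which may be technical. Limma drew each gene's variance toward a value shared by all genes, with 7.18 prior and 2 residual degrees of freedom. SEs, intervals and p-values thus weigh that shared value more than the gene's own spread. Log2 values of different receptors come from different probes, and their levels are not set against each other.

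TLR1, which pairs with TLR2 to sense triacylated lipopeptides, had log2 intensities of 7.71 and 7.88 in DZNep samples, against 6.67 and 6.65 in DMSO samples. Both DZNep arrays lay above both DMSO arrays, with a gap wider than the spread within either group. Its log2 fold change was 1.14 (SE 0.10, limma adjusted p = 0.000252), the rank 43 of 18377 genes in order of log2 fold change. TLR2, the shared partner of the lipopeptide receptors, had 9.32 and 9.28 in DZNep samples, against 8.40 and 8.34 in DMSO samples. The groups did not overlap, and replicates lay close together in both. Its log2 fold change was 0.93 (SE 0.09, limma adjusted p = 0.000435). TLR6, which pairs with TLR2 for diacylated lipopeptides, had 8.07 and 8.04 in DZNep samples, against 7.62 and 7.51 in DMSO samples. Again both DZNep arrays were the higher ones, and the log2 fold change was 0.49 (SE 0.10, limma adjusted p = 0.012). The call of TLR6 ended without DZNep replicate 1, at 0.47 (limma adjusted p = 0.0778). TLR1 and TLR6 are close paralogues and neighbours on chromosome 4, and whether their probe sets read each other's transcripts was not tested.

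TLR4, the receptor for bacterial lipopolysaccharide, had log2 intensities of 8.44 and 8.48 in DZNep samples, against 8.14 and 8.03 in DMSO samples. The groups did not overlap, but this was the smallest surface change, with a log2 fold change of 0.38 (SE 0.10, limma adjusted p = 0.0368). It stayed positive without each array, and the call ended without DZNep replicate 1 (0.40, limma adjusted p = 0.178), DZNep replicate 2 (0.36, 0.293) or DMSO replicate 2 (0.32, 0.0662), under median centring (0.35, 0.0737) and with 16 subtracted from every intensity (0.40, 0.0758).

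TLR8, an endosomal sensor of single-stranded RNA, had log2 intensities of 7.02 and 6.81 in DZNep samples, against 5.92 and 6.24 in DMSO samples. The DZNep arrays were the higher ones, with a wider spread in both groups than for the surface receptors TLR2, TLR4 and TLR6. The log2 fold change was 0.83 (SE 0.13, limma adjusted p = 0.00392). TLR7, its neighbour on the X chromosome and also a sensor of single-stranded RNA, had 6.31 and 6.13 in DZNep samples, against 6.54 and 6.53 in DMSO samples. Here both DZNep arrays were the lower ones, and the log2 fold change of −0.31 did not pass the test (SE 0.10, limma adjusted p = 0.0886). It was past the threshold after cyclic loess (0.0495) or quantile (0.0434) normalization. The 95% intervals of the log2 fold changes, not adjusted for the number of genes, ran between 0.54 and 1.12 for TLR8 and between −0.54 and −0.09 for TLR7. The difference between the 2 receptors was not tested.

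TLR3, the sensor of double-stranded RNA, had log2 intensities of 5.82 and 5.43 in DZNep samples, against 5.39 and 5.34 in DMSO samples. One DZNep array stood apart and the other lay close to the DMSO arrays, so that the log2 fold change of 0.26 (SE 0.13, limma adjusted p = 0.300) was 0.06 without DZNep replicate 1 and 0.45 without DZNep replicate 2. Its linear intensities lay between 40.6 and 56.3, where the lowest value of any probe set on the arrays was between 18.1 and 18.5, and no detection calls were used here. TLR9, the sensor of unmethylated CpG DNA, had 7.56 and 7.45 in DZNep samples, against 7.55 and 7.61 in DMSO samples. The groups overlapped, and its log2 fold change was −0.08 (SE 0.10, limma adjusted p = 0.727), with a 95% interval between −0.30 and 0.14.

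**Figure D1:**
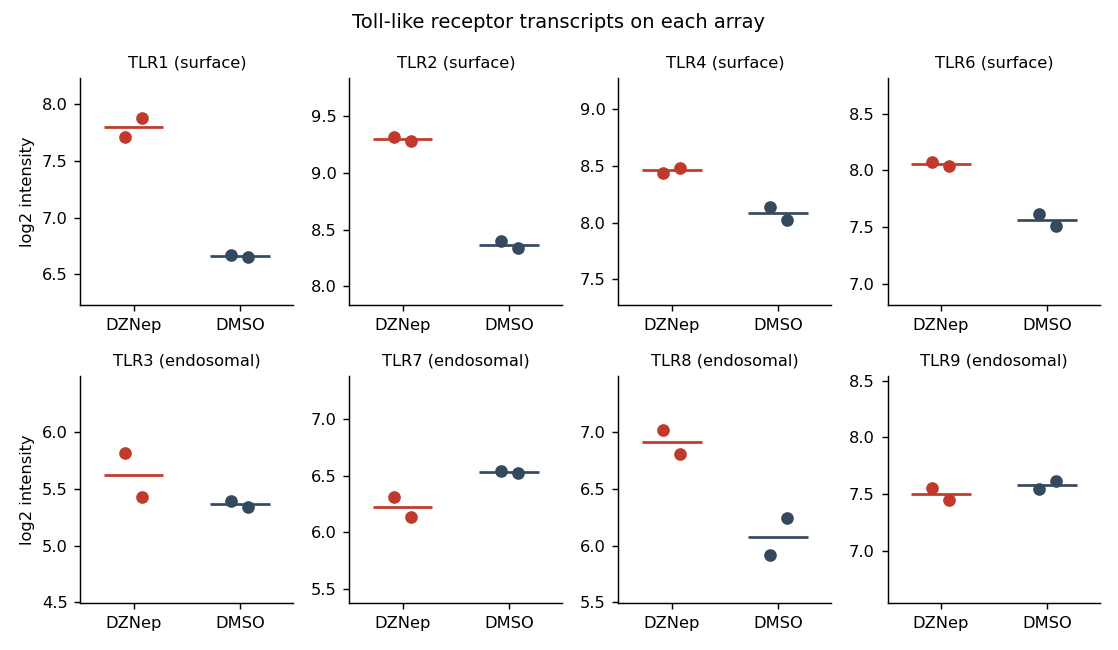
Log2 intensity of 8 Toll-like receptors on each of 4 arrays, in panels of equal height in log2 units; points are arrays and lines are means of DZNep (red) and DMSO (dark) samples. The DZNep arrays lie above the DMSO arrays for TLR1, TLR2, TLR4, TLR6 and TLR8 and, by a narrow margin on 1 array, for TLR3, while those of TLR9 overlap and those of TLR7 lie below.

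Set side by side, 4 of 4 surface receptors and 1 of 4 endosomal receptors were called higher, and none was called lower by limma in either class, where TLR7 had an unadjusted p of 0.0124. Over all genes, 3.62% were called higher and 6.68% lower. The median log2 fold change was 0.71 for the surface class (0.38 to 1.14) and 0.09 for the endosomal class (−0.31 to 0.83), beside 0.02 over all genes tested. The mean deviation from the DMSO mean over the surface class was 0.72 and 0.75 in the 2 DZNep samples, against 0.04 and −0.04 in the 2 DMSO samples. Over the endosomal class it was 0.28 and 0.06 in DZNep samples, against −0.04 and 0.04 in DMSO samples. Surface minus endosomal came to 0.43 and 0.69 in DZNep samples, and to 0.08 and −0.08 in DMSO samples. Being taken from the mean of the 2 DMSO arrays, all these DMSO values are equal and opposite by construction. Only their size carries information, on the spread between those arrays. The surface mean lay above the endosomal mean on both DZNep arrays, though the endosomal TLR8, at 0.83, had a larger log2 fold change than the surface members TLR6, at 0.49, and TLR4, at 0.38. The difference between the classes was not tested. Both DZNep arrays lay above both DMSO arrays for 6 receptors, where 25.9% of all genes did so, and below them for 1, TLR7, where 23.9% of all genes did so. The count of surface receptors called was 2 without DZNep replicate 1, where TLR1 and TLR2 passed.

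**Figure D2:**
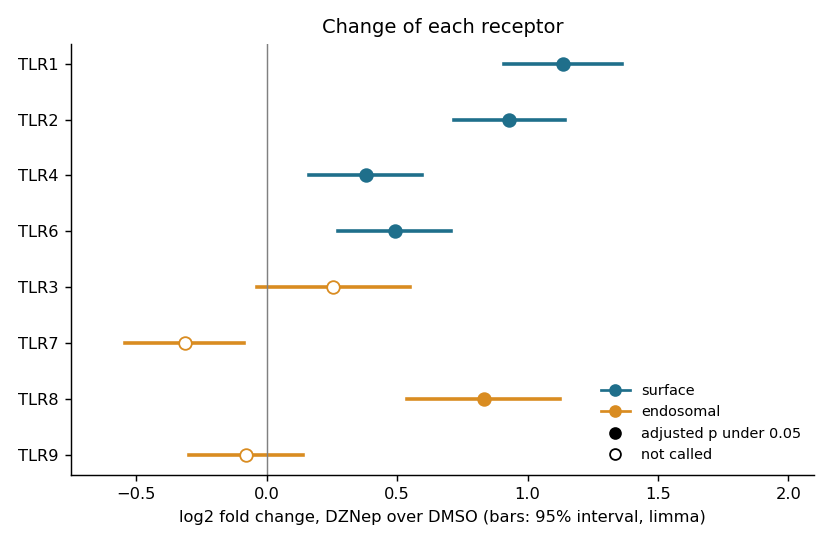
Log2 fold change of each receptor, DZNep over DMSO, with 95% intervals from limma (2 arrays a group); surface receptors are blue, endosomal ones orange, and filled points passed the adjusted p of 0.05. The 4 surface receptors and TLR8 lie between 0.38 and 1.14, while TLR3, TLR7 and TLR9 are open points between −0.31 and 0.26.

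The upstream sequences of 4 receptors that were called higher are shown to let their promoters be compared, because these genes rose in the same samples. Each is the 250 bases before the promoter start given in the RefSeq table (build GRCh38.p14), on the gene's own strand, 5′ to 3′. That source held 7 of the 10 receptors, and TLR1, also called higher, was not among them. The TLR6 window lies within the span of its gene, chr4:38822897-38868390, and not before the outermost start. Capitals mark matches, on either strand, to the motifs searched. They were GAGGAA for ETS factors such as the myeloid regulator PU.1, TGANTCA for AP-1, GAAANNGAA for interferon regulatory factors, GGNNNTTCC for NF-κB and TTNNGNAAT for C/EBP factors, chosen after the expression values were seen. TLR2 lies at chr4:153684030-153684279 on the plus strand, TLR4 at chr9:117704153-117704402 on the plus strand, TLR6 at chr4:38856818-38857067 on the minus strand and TLR8 at chrX:12906370-12906619 on the plus strand.
TLR2: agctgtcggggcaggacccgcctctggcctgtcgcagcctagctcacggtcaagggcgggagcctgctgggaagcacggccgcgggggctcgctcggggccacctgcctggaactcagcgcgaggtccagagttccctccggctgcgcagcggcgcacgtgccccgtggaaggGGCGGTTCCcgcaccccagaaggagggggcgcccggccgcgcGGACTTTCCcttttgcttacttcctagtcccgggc
TLR4: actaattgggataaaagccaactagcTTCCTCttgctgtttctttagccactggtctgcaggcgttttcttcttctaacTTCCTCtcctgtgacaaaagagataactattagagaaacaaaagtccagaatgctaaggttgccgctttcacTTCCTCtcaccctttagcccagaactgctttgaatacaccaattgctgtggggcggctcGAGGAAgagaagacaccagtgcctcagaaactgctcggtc
TLR6: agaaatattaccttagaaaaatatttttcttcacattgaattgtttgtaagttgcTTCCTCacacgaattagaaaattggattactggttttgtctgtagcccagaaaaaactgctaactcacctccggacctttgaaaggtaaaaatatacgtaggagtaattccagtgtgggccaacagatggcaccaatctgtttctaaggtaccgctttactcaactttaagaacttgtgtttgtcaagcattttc
TLR8: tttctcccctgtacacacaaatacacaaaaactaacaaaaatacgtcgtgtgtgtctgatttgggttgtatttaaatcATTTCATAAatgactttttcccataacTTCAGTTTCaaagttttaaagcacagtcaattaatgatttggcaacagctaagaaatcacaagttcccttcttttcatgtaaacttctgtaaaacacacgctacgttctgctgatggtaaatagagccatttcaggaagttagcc

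The TLR2 window was rich in CG dinucleotides, with 26, against 5 in TLR4, 4 in TLR6 and 4 in TLR8, where the median over 35116 promoters was 11. The TLR2 window held 2 matches to the NF-κB letters, which 17.1% of promoters hold at least once. The TLR4 window held 4 matches to the ETS letters and the TLR6 window 1, and 23.6% of promoters hold one. The TLR8 window held 1 match to the C/EBP letters, found in 9.85% of promoters, and 1 to those of interferon regulatory factors, found in 6.88%. Of the receptors not called, the TLR9 window held 2 ETS matches and 1 AP-1 match (in 6.57% of promoters), and the TLR3 window none of the 5 motifs. The matches did not overlap one another in any window printed. The 4 called receptors printed, TLR1 not among them, thus shared no motif of the 5 across all their windows. Matches of letters are a description that says nothing of binding.

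Genes beside the receptors were read on the same arrays. Among the nearest 2 measured genes on each side of each receptor or receptor pair, with those overlapping or between them, 1 of 26 was called higher and 3 lower, 15.4% in all beside 10.3% of all genes, with a median log2 fold change of −0.03. The 5 genes around TLR1 and TLR6 and the 4 around TLR7 and TLR8 held none called by limma, with 1 (KLF3) and 0 at an unadjusted p under 0.05. Beside TLR2 3 were called, with TMEM131L at 0.52, the meiotic recombination gene MND1 at −1.38 and RNF175 at −0.43 among its 5 neighbours, named after their values were seen. The remaining call was POC1A, a centriole gene beside TLR9, at −0.49.

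By Euclidean distance between log2 values centred on each gene's mean over the 4 arrays, the 5 genes whose pattern lay closest to that of TLR1 were SORL1, SIGLEC6, S100A8, TNFAIP2 and HLA-DMB. Their distances were 0.10, 0.10, 0.11, 0.15 and 0.15. SORL1 is a sorting receptor, SIGLEC6 a sialic acid-binding lectin, S100A8 a calcium-binding protein of myeloid cells, TNFAIP2 a TNF-induced protein and HLA-DMB a chaperone of class II peptide loading. With 4 arrays this likeness is mainly a likeness in the size of the change.

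Of the co-receptors that hand ligands to the surface receptors, CD36 rose and the partners of TLR4 were not called. CD36, a scavenger receptor that works with TLR2 and TLR6, had log2 intensities of 9.97 and 9.95 in DZNep samples, against 9.05 and 8.82 in DMSO samples, a log2 fold change of 1.03 (SE 0.11, limma adjusted p = 0.00052). CD14, which passes lipopolysaccharide to TLR4, had 7.01 and 7.07 in DZNep samples, against 6.55 and 6.88 in DMSO samples. Its groups did not overlap, and its log2 fold change of 0.33 was not called (limma adjusted p = 0.133), with 0.49 when DMSO replicate 2 was left out (0.0205) and 0.17 when DMSO replicate 1 was (0.340). LY96, the MD-2 subunit that binds lipopolysaccharide beside TLR4, had 5.82 and 5.72 in DZNep samples, against 5.82 and 5.45 in DMSO samples, a log2 fold change of 0.13 (adjusted p = 0.642, limma) with overlapping groups. Its direction turned, to −0.05, when DMSO replicate 2 was left out, and its value was 0.32 when DMSO replicate 1 was. Of 9 co-receptors measured, 1 was called higher and none lower, where 3.62% of all genes were called higher and 6.68% lower. Their median was 0.11, which was −0.05 without DMSO replicate 2.

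The chaperone that folds most Toll-like receptors was lower while some endosomal partners were higher. HSP90B1, the endoplasmic reticulum chaperone gp96, had log2 intensities of 11.92 and 11.83 in DZNep samples, against 13.20 and 12.93 in DMSO samples, and fell by 1.19 on the log2 scale (SE 0.11, limma adjusted p = 0.000333). Its cofactor for receptor folding, CNPY3, had a log2 fold change of −0.27 (adjusted p = 0.126, limma), a value named after it was seen. UNC93B1, which carries the nucleic acid receptors to endosomes, had 9.76 and 10.03 in DZNep samples, against 9.85 and 9.71 in DMSO samples, with a log2 fold change of 0.11 (adjusted p = 0.661, limma), which lay between −0.02 (without DZNep replicate 2) and 0.25 (without DZNep replicate 1) with 1 array left out. Its 3 probe sets gave −0.10, 0.08 and 0.11, and the last represents the gene here, while their mean gave 0.03. TASL, the adaptor by which TLR7, TLR8 and TLR9 reach the transcription factor IRF5, had 10.88 and 10.83 in DZNep samples, against 9.40 and 9.84 in DMSO samples. Both DZNep arrays were well above both DMSO arrays, which differed from each other, and the log2 fold change was 1.24 (SE 0.14, limma adjusted p = 0.000722). CTSB, a lysosomal protease reported to act on endosomal receptors, rose by 0.53 (limma adjusted p = 0.00902). In all, 2 of 13 genes of folding, transport and cleavage were called higher and 1 lower, with a median of 0.11. Among all genes, 3.62% were called higher and 6.68% lower.

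Among the adaptors MYD88 was called higher and the others were not. MYD88, used by every Toll-like receptor except TLR3, had log2 intensities of 8.21 and 8.12 in DZNep samples, against 7.74 and 7.81 in DMSO samples, a log2 fold change of 0.39 (SE 0.10, limma adjusted p = 0.0315). The call ended without DZNep replicate 1 (0.35, limma adjusted p = 0.297), DZNep replicate 2 (0.44, 0.12) or DMSO replicate 1 (0.36, 0.0722) and with 16 subtracted from every intensity (0.42, 0.0646). TICAM1, the adaptor TRIF of TLR3 and TLR4, had 7.82 and 7.76 in DZNep samples, against 7.74 and 7.74 in DMSO samples, a log2 fold change of 0.05 (adjusted p = 0.838, limma). TIRAP, which bridges MyD88 to TLR2 and TLR4, had 0.03 (adjusted p = 0.950, limma) with overlapping groups, a value named after it was seen. Of 4 adaptors measured, 1 was called higher and none lower, where 3.62% of all genes were called higher and 6.68% lower. Their median was 0.10, a value of 0.27 when DMSO replicate 2 was left out and of 0.03 when DMSO replicate 1 was.

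Among the downstream signalling genes BTK was called lower, and JUN and FOS higher. Of all genes, 3.62% were called higher and 6.68% lower, 10.3% in either direction. Of 21 kinases and ubiquitin enzymes, none was called higher by limma (3 at an unadjusted p under 0.05) and 1 lower, the tyrosine kinase BTK, with a log2 fold change of −0.64 (adjusted p = 0.00554, limma). Their median was 0.10, which was 0.04 without either DZNep array and 0.03 without DMSO replicate 2. Of 15 transcription factors, 2 were called higher and none lower (1 at an unadjusted p under 0.05), with a median of 0.18. Leaving out DMSO replicate 2 gave a median of 0.11 and 1 factor called lower, and leaving out DMSO replicate 1 a median of 0.12. Those called higher were the AP-1 members JUN at 0.41 (limma adjusted p = 0.0314) and FOS at 0.35 (0.0446). The call of JUN ended without DZNep replicate 1 (0.46, limma adjusted p = 0.0854), DZNep replicate 2 (0.35, 0.315) or DMSO replicate 2 (0.36, 0.0635), under median centring (0.37, 0.0599) and with 16 subtracted from every intensity (0.43, 0.066). The call of FOS ended without any 1 of the 4 arrays, with values from 0.31 to 0.39 (limma adjusted p of 0.0528 to 0.411), with the replicate number as a block (0.062), under median centring (0.32, 0.0802) and with 16 subtracted (0.36, 0.0911).

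Of 23 negative regulators, 5 were called higher, none lower and 18 in neither direction, with a median of 0.19. Beside them, 3.62% of all genes were called higher and 6.68% lower, and the list was not tested. NFKBIA, the inhibitor IκBα that NF-κB itself induces, had log2 intensities of 9.96 and 9.99 in DZNep samples, against 8.70 and 8.75 in DMSO samples, a log2 fold change of 1.26 (SE 0.09, limma adjusted p = 0.000102). The repressor BCL6 rose by 0.79, the deubiquitinase CYLD by 0.51, the cytokine signalling inhibitor SOCS1 by 0.49 and the IκB family member BCL3, named after its value was seen, by 0.44. The call of CYLD ended without DZNep replicate 2 (0.45, adjusted p = 0.108, limma) or DMSO replicate 2 (0.33, 0.077), under median centring (0.48, 0.0572) and with 16 subtracted (0.52, 0.0781), that of SOCS1 without DZNep replicate 1 (0.47, 0.0787) and that of BCL3 without DZNep replicate 1 (0.35, 0.287) or DMSO replicate 1 (0.36, 0.0996) or with 16 subtracted (0.47, 0.0664).

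Of 31 induced cytokines and surface proteins, 10 were called higher and 2 lower, with a median of 0.15. The cytokine TNF had log2 intensities of 9.45 and 9.26 in DZNep samples, against 7.23 and 7.45 in DMSO samples, a log2 fold change of 2.02 (SE 0.12, limma adjusted p = 3.21e-05). Its 3 probe sets gave near-identical values on every array and are not read as independent measurements. The costimulatory receptor CD86 rose by 1.45 and TNFAIP2 by 1.03. The chemokine CCL5 had 8.35 and 8.48 in DZNep samples, against 9.71 and 9.55 in DMSO samples, and fell by 1.22 on the log2 scale (limma adjusted p = 0.000218). The other gene called lower was the cytokine subunit IL23A at −0.51 (limma adjusted p = 0.0178), named after its value was seen, whose call ended without DZNep replicate 1 (−0.44, limma adjusted p = 0.116) or DMSO replicate 1 (−0.41, 0.0621). Of all genes, 3.62% were called higher and 6.68% lower. The share of this list called higher was above the former and the share called lower was close to the latter. No test was made of the list.

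**Figure D3:**
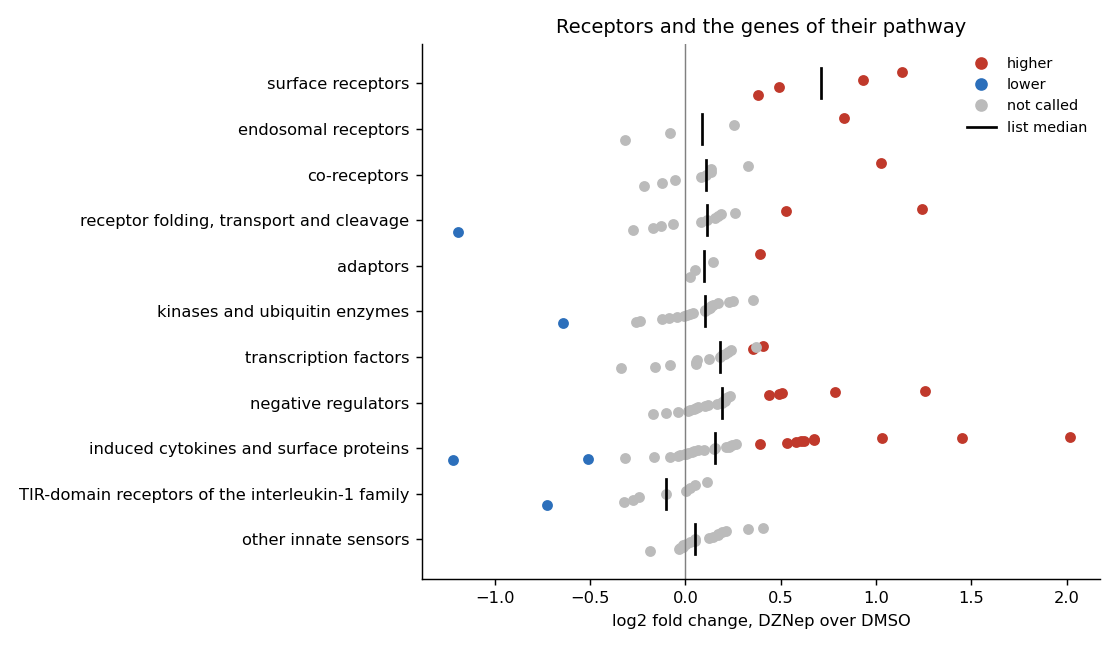
Log2 fold change, DZNep over DMSO, of every measured gene of 11 lists of receptors and pathway genes; each point is a gene, red where called higher, blue where called lower, grey where not called, and black bars are list medians. The surface receptors have the highest median, 0.71, and the other lists lie between −0.10 and 0.19.

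Related receptors and other sensors of innate immunity were read in the same way. Of 9 receptors of the interleukin-1 family, most of which carry the same TIR domain, none was called higher by limma (0 at an unadjusted p under 0.05) and 1 lower. Over all genes, 3.62% were called higher and 6.68% lower. The median of these 9 was −0.10, which was 0.01 without DZNep replicate 2. IL1RAP, the shared accessory subunit of the interleukin-1 receptors, had log2 intensities of 8.17 and 8.22 in DZNep samples, against 8.996 and 8.85 in DMSO samples, a log2 fold change of −0.73 (SE 0.10, limma adjusted p = 0.00198). Of 17 other innate sensors, such as NOD-like receptors and cytosolic nucleic acid sensors, 0 passed limma's test in either direction, with a median of 0.05 that was 0.13 without DZNep replicate 1, 0.09 without DZNep replicate 2 and 0.12 without DMSO replicate 1, and at an unadjusted p under 0.05 there were 3 higher and 0 lower. The RNA sensor IFIH1 had 0.41 (limma adjusted p = 0.0662) and the DNA pathway adaptor STING1 0.33 (0.0582). IFIH1 passed without DZNep replicate 1 (0.53, limma adjusted p = 0.0348), with the replicate number as a block (0.0223), under the crossed block (0.011) and without the dimmest 25% (0.0461) or 50% (0.0287) of genes. STING1 passed when arrays were quantile-normalized (0.40, limma adjusted p = 0.0173) or adjusted by cyclic loess (0.38, 0.024), with an intensity trend (0.00539), under the crossed block (0.0341) and without the dimmest 25% (0.0442) or 50% (0.0225) of genes. The difference between these lists and the surface receptors was not tested.

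Markers of cell types that express these receptors were read on the same arrays. The summed linear intensity of 7 mature monocyte and macrophage markers was 863 and 849 in DZNep samples, against 685 and 787 in DMSO samples. Among the 7, 1 was called higher, CSF1R at 0.47 (limma adjusted p = 0.0128). The others were not called by limma. CD14 had 0.33, CD163 0.18, MARCO 0.17, VSIG4 −0.03, MRC1 −0.06 and FCGR3A −0.20. A linear sum leans on its brightest markers. The part of these genes in the receptor changes was not tested. The sum of 5 plasmacytoid dendritic cell markers was 967 and 1042 in DZNep samples, against 1004 and 919 in DMSO samples, with overlapping groups and none called by limma (1 at an unadjusted p under 0.05). The sum of 5 B cell markers was 556 and 555 in DZNep samples, against 536 and 573 in DMSO samples, with none called (0 at an unadjusted p under 0.05). The sum of 8 T and NK cell markers was 1404 and 1481 in DZNep samples, against 1511 and 1569 in DMSO samples, with none called (1 at an unadjusted p under 0.05). No marker can read 0, since the lowest deposited intensities were near 18. Of 10 markers of a monocytic leukemia line, LYZ was called higher at 0.53 and FLT3 lower at −0.94. The log2 means of these 10 in DMSO samples lay between 8.19 and 12.24. Beside these marker lists, 3.62% of all genes were called higher and 6.68% lower, and no marker list was tested. All samples are of the 1 line MOLM-14, so these sums are not read as shares of separate cell types. In bulk samples, fewer cells in a given state and less RNA per cell cannot be told apart.

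Across the arrays, the median log2 intensity of all probe sets was 7.05 to 7.07 in DZNep samples and 6.99 to 7.07 in DMSO samples. The SD of the log2 difference over all genes was 0.14 between the DZNep arrays, 0.20 between the DMSO arrays and 0.27 to 0.32 between arrays of the 2 groups. Precision is limited by having 4 arrays in all.

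Across the processing settings, TLR1, TLR2 and TLR8 kept their calls wherever they were tested, with log2 fold changes between 1.05 and 1.28, 0.90 and 0.97, and 0.67 and 1.02. TLR6 passed in 13 of 14 settings other than the crossed replicate block and TLR4 in 9 of 14. TLR3 and TLR9 passed in none, and TLR7 in 2 of 13 and also under the crossed block.

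**Figure D4:**
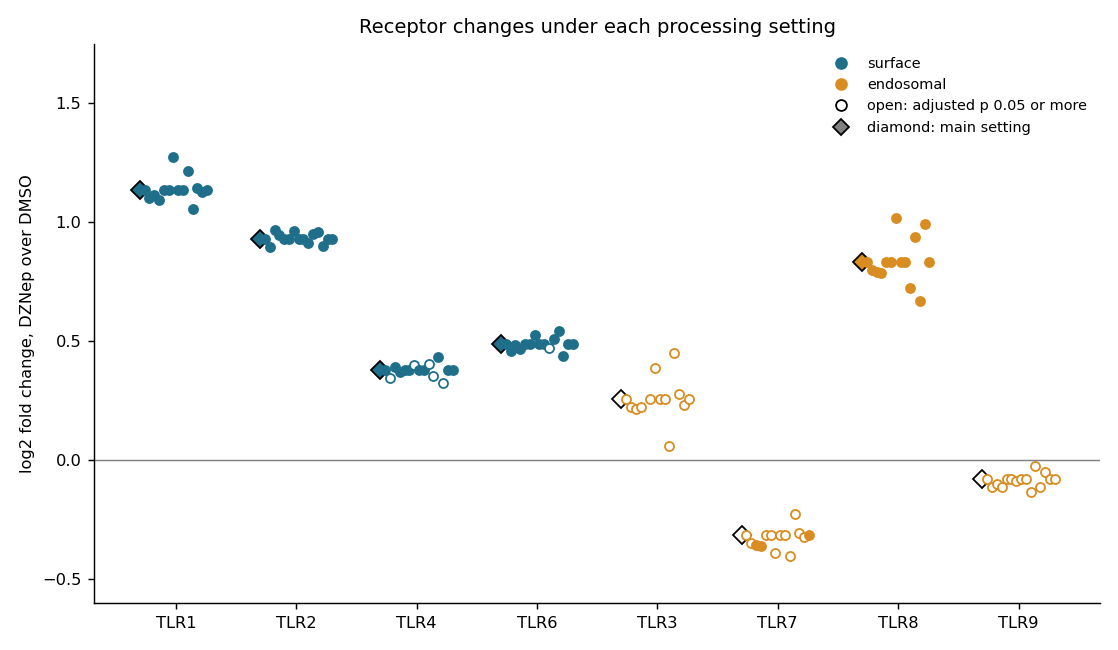
Log2 fold change of each receptor, DZNep over DMSO, under the main setting (diamond) and every alternative (circles), with open symbols where the limma adjusted p was 0.05 or more. TLR1, TLR2 and TLR8 are filled throughout, TLR4 is open in 5 settings, and no receptor changes sign.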

How the data were processed

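Total RNA of 4 MOLM-14 samples was labelled as whole-transcript sense target, per the labels' protocols. The authors deposited linear intensities, 1 for each probe set on each array, which RMA had summarised according to the submitters' processing notes. Its version, the array software and the genome build were not given in the sources used here. Nor is it stated whether a constant was added, which would shrink the folds of dim genes.

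Here log2 of the intensity was taken, with no pseudocount, further normalization or filter. Of 28869 probe sets, 19310 have 1 symbol in the platform annotation, 1752 several and 7807 none. The probe set with the highest mean stood for each of 18377 genes. DZNep and DMSO samples (2 arrays each) were compared with limma 3.58.1 in R 4.3.3 (lmFit, eBayes, group only, two-sided). P-values were adjusted by Benjamini-Hochberg across every gene, with a threshold of 0.05. The fit was tested on simulated data. No gene list was tested as a set.

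The receptors and lists were chosen with earlier results of these data known. All receptors, CD14, LY96, UNC93B1, HSP90B1, MYD88 and TICAM1 were named by rule. From each list up to 4 called genes with the largest change, or 2 where none was called, were also named, as were the 5 genes closest in pattern to the receptor with the largest change. Alternatives were the replicate block, 3 normalizations, 2 filters on dim genes, an intensity trend, subtracting 16, other uses of probe sets and leaving out each array. Promoter windows came from the RefSeq table.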

Additional observations from a re-analysis of the deposited data

How the results depend on the processing

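Over all genes, 665 were called higher and 1227 lower, which went from 336 to 776 higher and from 734 to 1662 lower when 1 array was left out. The lowest counts were without DZNep replicate 2 (336 higher) and DZNep replicate 1 (734 lower, with 439 higher). The surface median of 0.71 was 0.67 to 0.75 with 1 array left out, and 2 to 4 surface receptors were called. It was 0.49 without the dimmest 50% of genes, a filter that also removed TLR1. The endosomal median of 0.09 went from −0.037 to 0.21 with 1 array left out and was −0.080 without the dimmest 25% of genes, which left out TLR3, and without the dimmest 50%, which left out TLR3, TLR7 and TLR8 and so left 0 endosomal receptors called higher. TLR7 made 1 endosomal receptor lower under quantile or cyclic loess normalization and the crossed block. With the replicate number as a block, 754 genes were higher and 1353 lower, TLR1, TLR2, TLR4, TLR6 and TLR8 passed, and of the other genes named FOS and IFIH1 changed sides of the threshold. The numbers pair nothing in the labels, and the deviations of same-numbered arrays correlated at −0.22 over genes. A crossed replicate block, chosen after seeing the data, gave 1034 higher and 1690 lower. No receptor changed sign in any alternative run. Signal over background was not available to set limits for the dimmer receptors.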
